A study of Mus musculus with 4 samples.

Results

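The transcriptome of neonatal mouse cardiomyocytes given a mimic of the microRNA hsa-miR-199a-3p was compared with each of its 2 controls, mock transfection and the control mimic cel-miR-67. The comparison used 3 of the 4 libraries of the study, and the fourth, from cells given hsa-miR-590-3p, entered only the scaling, the filter on low counts and the bands of level. Cells came from hearts of CD1 mice at postnatal day 1. Mimics were introduced at 50 nM by reverse transfection with Lipofectamine RNAiMAX, a lipid reagent, and RNA was collected at 72 h. cel-miR-67 is a Caenorhabditis elegans microRNA used as a control mimic, and mock cells received no mimic. The labels name no genetic change in any group. There was 1 library per condition, so no test was possible, and no difference has a replicate check.

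The genes measured were chosen by level alone, whereas the gene lists were chosen with earlier results of these data known. Reads of all transcript records with the same gene symbol were summed, scaled to library size and expressed as CPM, read counts relative to the scaled total of the library. Genes whose 4-library mean reached 1 CPM were kept, 13483 of 27207. A gene was counted as higher or lower when both of its ratios, to cel-miR-67 and to mock, reached 2-fold in the same direction. This 2-fold criterion was met by 327 genes on the higher side (2.43% of the genes measured) and 306 on the lower side (2.27%). These shares are the background for the counts in every gene list below. Because of how the lists were chosen, their contrasts with these shares are descriptions and not independent evidence. Ratios are log2 ratios of CPM after adding 0.5 reads, scaled to depth, and the 95% intervals given for some ratios cover counting error only. Where a pair of ratios or list medians is given, the first is against cel-miR-67 and the second against mock. Levels in CPM are not corrected for transcript length and are compared mainly between libraries. Where genes are sorted into bands, ranked or summed by CPM, longer transcripts count for more.

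MicroRNAs are short RNAs that guide Argonaute proteins to messenger RNAs, mainly through pairing of the seed, bases 2 to 8 of the microRNA, and lower the stability or translation of those messages. Cardiomyocytes of the newborn mouse heart leave the cell cycle during early postnatal life, and miR-199a-3p is known as a microRNA whose mimic makes such cells enter the cycle again. E2F factors, held in check by retinoblastoma family proteins, switch on genes for DNA synthesis, and the genes of mitosis are expressed later in the cycle.

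The mouse microRNA that carries the name of the mimic is given with its seed in capitals, beside miR-199b-3p, since both are made from separate genes. Sequences and positions are those of RefSeq on GRCm38.p6, and the sequence of the human mimic itself was not used here.
mmu-miR-199a-3p: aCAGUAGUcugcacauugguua
mmu-miR-199b-3p: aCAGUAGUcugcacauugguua
The mature sequence of miR-199a-3p lies at chr1:162217883-162217904 on the plus strand (Mir199a-2) and at chr9:21496498-21496519 on the minus strand (Mir199a-1), and that of miR-199b-3p at chr2:32318524-32318545 on the plus strand (Mir199b). Both mature forms are identical in all 22 bases. Among 1738 mature microRNA entries of the table, the seed CAGUAGU occurred in these 3 entries, which have 2 names.

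The libraries held 31638930 reads in mock, 34255689 in cel-miR-67 and 38745528 in hsa-miR-199a-3p, of which 67.6% to 68.7% were uniquely placed. A count of 0 at these depths allows up to 0.0980, 0.0898 and 0.0748 CPM, taking 3 reads as the limit. Ribosomal RNA records took 0.861% of reads in mock, 0.422% in cel-miR-67 and 0.420% in hsa-miR-199a-3p. The cell type on the label was checked against marker lists. Of 10 cardiomyocyte markers all were measured, and their summed level was 54008 CPM in mock, 50355 in cel-miR-67 and 34596 in hsa-miR-199a-3p, below both controls for each of the 10. From uniquely placed reads alone 9 of these were measured, of which 8 lay below both controls and 0 above both. The 12 fibroblast markers summed to 10715, 10426 and 12151 CPM in the same order, and 10 measured smooth muscle and pericyte markers to 4749, 5705 and 6773 CPM. The 11 measured endothelial markers summed to 573, 566 and 525 CPM, and 12 epicardial markers to 582, 445 and 458 CPM. Leukocyte markers summed to 17.2, 8.65 and 7.91 CPM over the 4 of 17 that were measured, with Cd3e at 0 reads in every library. Of 12 Schwann cell and neuron markers 4 were measured, with Sox10 at 0 reads, and none of 10 erythroid markers was measured, with Hbb-b1 and Ahsp at 0 reads. These are bulk cultures, so fewer cells of a type and less RNA per cell cannot be told apart.

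Against single controls, hsa-miR-199a-3p was at least 2-fold higher than cel-miR-67 in 539 genes (4%) and lower in 488 (3.62%). Against mock it was higher in 548 (4.06%) and lower in 483 (3.58%). The controls themselves differed at least 2-fold in fewer genes, cel-miR-67 being higher than mock in 87 (0.645%) and lower in 169 (1.25%). The spread of the ratios, as a robust SD over genes, was 0.44 log2 units against cel-miR-67 and 0.44 against mock, and 0.22 between the controls. Whatever the size, 5572 genes (41.3%) lay above both controls and 5510 (40.9%) below both, a balance that the scaling sets, since it centres the ratios. With libraries scaled to their total counts instead, 6835 genes (50.7%) lay above both and 4417 (32.8%) below both, and 413 genes were higher and 240 lower, which moves the higher share of the genes that met the criterion from 51.7% to 63.2%. That scaling moves the median of all genes to 0.09 against cel-miR-67 and 0.10 against mock.

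**Figure D1:**
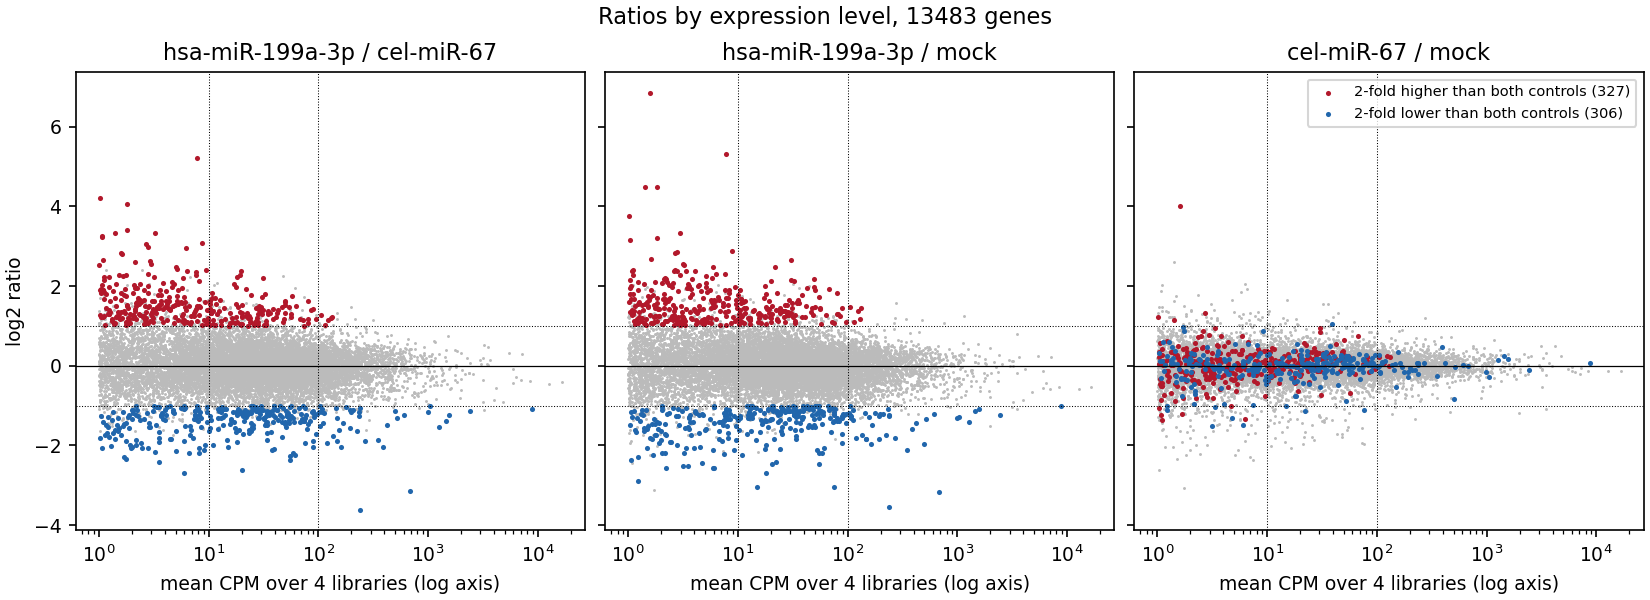
Log2 ratio (vertical axis) of each of 13483 genes plotted on its mean CPM over 4 libraries (horizontal log axis) for hsa-miR-199a-3p against cel-miR-67, hsa-miR-199a-3p against mock and cel-miR-67 against mock. Red points are the 327 genes at least 2-fold higher than both controls, blue points the 306 at least 2-fold lower, dotted lines mark 2-fold and the edges of the bands at 10 and 100 CPM; red points thin out to the right while blue points continue, and most coloured points lie near 0 between the controls.

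Abundant and weakly expressed genes differed in direction. Of 3895 genes with a mean of 1 to 10 CPM, 210 were higher (5.39%) and 116 lower (2.98%). Of 7513 genes at 10 to 100 CPM, 112 were higher (1.49%) and 150 lower (2%). Of 2075 genes at 100 CPM or more, 5 were higher (0.241%) and 40 lower (1.93%). The higher share of the genes that met the criterion was thus 64.4% in the lowest band, 42.7% in the middle band and 11.1% in the highest. The share of lower genes changed less from band to band than the share of higher genes.

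A mean over 4 libraries includes the library that is high, so the bands were also set without it. With bands set by the hsa-miR-590-3p library, 182 genes were higher and 103 lower at 1 to 10 CPM, 111 and 151 at 10 to 100 CPM, and 4 and 46 at 100 CPM or more. With bands set by the mean of both controls the highest band held 0 higher and 50 lower genes, and the lowest 189 and 106. The controls are the denominators of both ratios, so by construction this setting tends to place higher genes in lower bands and lower genes in higher bands. Under both, higher genes outnumbered lower genes in the lowest band and lower genes outnumbered higher genes in the highest. Of these settings, only the hsa-miR-590-3p library enters neither ratio, except through the scaling. Of the 327 higher genes, 38 had a mean below 1 CPM in the other 3 libraries and were measured only through the library in which they were high. Below 1 CPM in both controls were 45 of the higher genes, and 42 of the lower genes were below 1 CPM under hsa-miR-199a-3p.

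**Figure D2:**
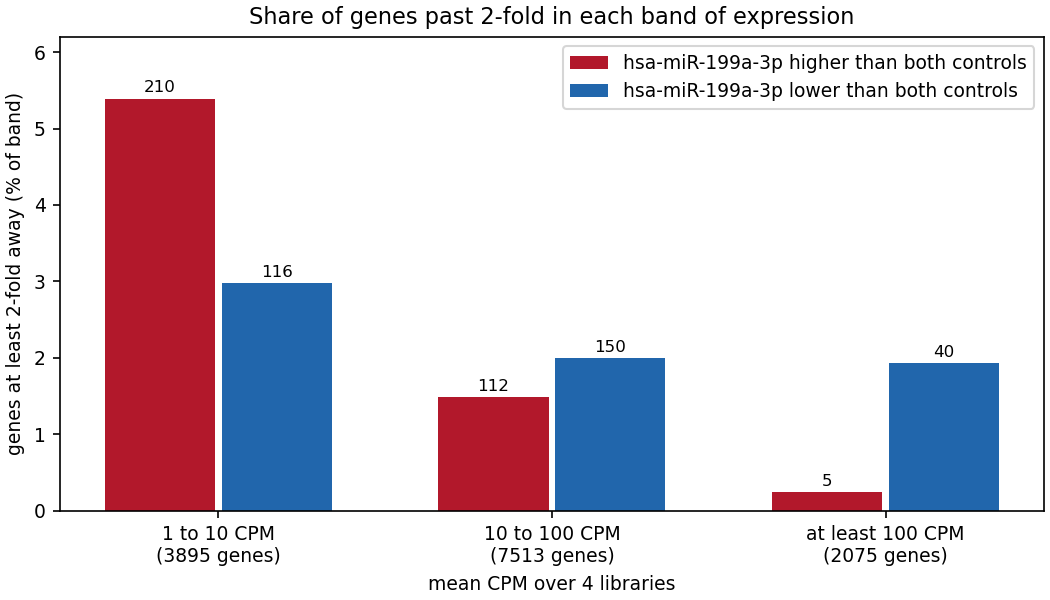
Share of genes (vertical axis, percent of the band) at least 2-fold higher (red) or lower (blue) under hsa-miR-199a-3p than in both controls, in 3 bands of mean CPM over 4 libraries, with the number of genes above each bar. Red bars drop from 210 genes at 1 to 10 CPM to 5 at 100 CPM or more, while blue bars stay between 1.93% and 2.98%.

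Counting error is larger for weak genes, but the spread exceeded it in every band. Against cel-miR-67 the robust SD was 0.59, 0.40 and 0.37 log2 units from the lowest to the highest band, and the median counting SD of a gene's ratio was 0.18, 0.06 and 0.03. Between the controls the robust SD was 0.36, 0.19 and 0.17. At least 2-fold in either direction from cel-miR-67 were 14.2%, 5.30% and 3.71% of genes, and between the controls 4.39%, 1.01% and 0.434%. The part of a weak gene's difference that differences between cultures would give was not measured, since each condition has 1 library. When the whole 95% counting interval had to lie past 2-fold against both controls, 167 higher and 163 lower genes met it, 93 and 38 of them in the lowest band, 70 and 88 in the middle and 4 and 37 in the highest.

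Most differences were moderate. Against the nearer control, more than 4-fold was reached by 27 higher genes, 26 of them at 1 to 10 CPM, and by 13 lower genes. More than 8-fold was reached by 5 higher genes, all at 1 to 10 CPM, and 2 lower genes, both at 100 CPM or more. All 5 of these higher genes, and 13 of the 27, averaged below 1 CPM in the other 3 libraries, so they were measured only through the library in which they were high. The median level of a higher gene was 5.26 CPM over the 4 libraries and that of a lower gene 19.8 CPM. Summed over genes, the higher set held 2934 CPM in mock, 3131 in cel-miR-67 and 8022 in hsa-miR-199a-3p, and the lower set 38912, 39215 and 15985 CPM. Most of the lower sum came from the 40 abundant genes, with 31312, 31639 and 13053 CPM. A single gene model without a gene name gave 30.9% of the difference between cel-miR-67 and hsa-miR-199a-3p in that last sum.

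Of the 12 genes with the highest ratios, 8 averaged below 1 CPM in the other 3 libraries and passed the filter only through hsa-miR-199a-3p, so few reads in the controls are set by the filter for them. Pcp4, a small calmodulin-binding protein of neurons, had 22 reads in mock, 26 in cel-miR-67 and 1169 in hsa-miR-199a-3p, with log2 ratios of 5.20 against cel-miR-67 and 5.31 against mock, an interval of the ratio against cel-miR-67 of 25.4 to 57.6. Lypd1, a GPI-anchored protein, had 8, 12 and 249 reads, of which 35.8% were uniquely placed over the libraries. Slc1a1, a glutamate transporter, had 3.33 CPM in mock, 2.90 in cel-miR-67 and 24.6 in hsa-miR-199a-3p, with log2 ratios of 3.08 against cel-miR-67 and 2.88 against mock. In each of the 3 the controls lay close together and hsa-miR-199a-3p stood far above them. The others of the 12 were Mal, Car6, Abcb1a, Avil, Mt3, Stac2, Atp6v1c2, Ankrd34b and Lgi3, with log2 ratios against cel-miR-67 between 2.53 (Ankrd34b) and 4.22 (Abcb1a). Several have known roles outside cardiac muscle, among them Abcb1a, a drug efflux pump, Mt3, a metallothionein of brain, and Car6, a secreted carbonic anhydrase. In the middle band the highest were Wscd2, Alpl, Cited1, Bex1, Neurl1b and Nptxr, the last with 7.30% of its reads uniquely placed. Alpl, tissue-nonspecific alkaline phosphatase, had 8.95 CPM in mock, 9.10 in cel-miR-67 and 36.1 in hsa-miR-199a-3p, with log2 ratios of 1.98 against cel-miR-67 and 2.01 against mock. Cited1, a transcriptional coregulator, had 9.15 CPM in mock, 13.5 in cel-miR-67 and 51.1 in hsa-miR-199a-3p, with log2 ratios of 1.92 against cel-miR-67 and 2.48 against mock, and 18.3% of its reads were uniquely placed.

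At 100 CPM or more all 5 higher genes can be named. Ccna2, the S and G2 phase cyclin A2, had 59.3 CPM in mock, 69.0 in cel-miR-67 and 165 in hsa-miR-199a-3p, with log2 ratios of 1.26 against cel-miR-67 and 1.48 against mock. Stmn1, the microtubule-destabilising protein stathmin, had 79.1 CPM in mock, 92.7 in cel-miR-67 and 214 in hsa-miR-199a-3p, with log2 ratios of 1.21 against cel-miR-67 and 1.44 against mock, and 32.7% of its reads were uniquely placed. Mest and H19, both imprinted and both strongly expressed before birth, had log2 ratios of 1.19 and 1.14 against cel-miR-67 and 1.18 and 1.38 against mock. H19 had 83.5 CPM in mock, 98.6 in cel-miR-67 and 217 in hsa-miR-199a-3p. Ttyh3, a membrane protein, had 79.9 CPM in mock, 84.3 in cel-miR-67 and 171 in hsa-miR-199a-3p, the ratios closest to the threshold among the 5. In all 5 the controls lay below 100 CPM and hsa-miR-199a-3p above it. The hsa-miR-590-3p library was above 100 CPM for 4 of them and at 95.5 CPM for H19.

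The 2 lowest ratios among the lower genes were those of abundant transcripts. Cd151, a tetraspanin that binds laminin-binding integrins, had 321 CPM in mock, 336 in cel-miR-67 and 27.5 in hsa-miR-199a-3p, with log2 ratios of -3.61 against cel-miR-67 and -3.55 against mock and a ratio interval against cel-miR-67 of 0.0768 to 0.0870. Fth1, the ferritin heavy chain, had 902 CPM in mock, 896 in cel-miR-67 and 101 in hsa-miR-199a-3p, with log2 ratios of -3.16 against cel-miR-67 and -3.17 against mock. Both controls were nearly equal for these 2 genes, and hsa-miR-199a-3p lay far below them. Also among the 12 with the lowest ratios were Nudt12, Steap4, Pon2, Il13ra1, Gpr146, Ccdc63, Clrn1, Otud6b and H1f4 (listed as Hist1h1e), with log2 ratios against cel-miR-67 from -2.71 (Nudt12) to -2.04 (H1f4). Pon2, an intracellular paraoxonase, had 78.1 CPM in mock, 67.6 in cel-miR-67 and 14.1 in hsa-miR-199a-3p, with log2 ratios of -2.26 against cel-miR-67 and -2.47 against mock.

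The other abundant lower genes are given by their known roles. Proteins of the endoplasmic reticulum and the Golgi were Retreg1 (listed in the files as Fam134b), a receptor for autophagy of the endoplasmic reticulum, Ktn1 (kinectin), Selenot, and the golgins Golga4 and Golgb1. Retreg1 had 198 CPM in mock, 208 in cel-miR-67 and 50.9 in hsa-miR-199a-3p, with log2 ratios of -2.03 against cel-miR-67 and -1.96 against mock. Membrane and surface proteins were Tmem30a, a flippase subunit, Itga3, Adam10, Ptprf, Cpd, Lnpep and Magi3. Tmem30a had 149.6 CPM in mock, 162 in cel-miR-67 and 42.1 in hsa-miR-199a-3p, with log2 ratios of -1.94 against cel-miR-67 and -1.83 against mock. Muscle genes were Csrp3, Myl4, Pln, Myom2, Ttn, Ryr2, Cfl2, Lrrc10, Txlnb and Slc8a1, and secreted products Nppa, Nppb, Clu, Postn and Tfpi. Regulators and scaffolds were Ywhae, Nacc1, Usp25, Akap9, Sh3glb1, Nckap1, Klhl24 and the kinase Taok1. Slc8a1 and Golgb1 were nearest to the threshold, with log2 ratios of -1.0 and -1.02 against cel-miR-67.

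Records of lower genes were longer than those of genes in general, except at low level. The median record length at 10 to 100 CPM was 3797 nt for lower, 2761 for higher and 2991 for all measured genes, and at 100 CPM or more 3814.5 nt for lower genes and 3470 for all. At 1 to 10 CPM it was 2409 nt for lower, 2744 for higher and 2414 for all. Over all measured genes it thus rose from band to band, and the CPM that sets the bands is not corrected for length.

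By CPM gained or lost rather than by ratio, other genes led among those with a gene name, nearly all of them within 2-fold. Acta2, smooth muscle actin, had 2675 CPM in mock, 3307 in cel-miR-67 and 4612 in hsa-miR-199a-3p, with log2 ratios of 0.48 against cel-miR-67 and 0.79 against mock. Eef1a1, Col1a1, Myl9, Col3a1 and Pygb had the next largest gains against the nearer control, with log2 ratios against cel-miR-67 from 0.28 (Eef1a1) to 0.74 (Col3a1). Myl9, a myosin light chain of smooth muscle, was the exception against mock, with 773 CPM in mock, 1213 in cel-miR-67 and 1841 in hsa-miR-199a-3p, and cel-miR-67 itself stood above mock. The largest losses among genes with a gene name were Myh6, Actc1, Ankrd1, Fn1, Mybpc3 and Tnnt2, 5 of them cardiac muscle genes. A gene model without a gene name, described under other observations, lost more CPM than any of these. It was past 2-fold lower against both controls. Mybpc3, cardiac myosin-binding protein C, had 4108 CPM in mock, 3779.8 in cel-miR-67 and 1998 in hsa-miR-199a-3p, with log2 ratios of -0.92 against cel-miR-67 and -1.04 against mock, past 2-fold against mock only. The reference genes were close to level: Gapdh had log2 ratios of 0.03 and 0.00, Actb of -0.21 and 0.03. Only 2.53% of the reads of Gapdh, which has 1 record, were uniquely placed.

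Most cell cycle genes lay above both controls. Over 5 lists, of DNA replication, nucleotide synthesis, kinetochore, mitotic and cyclin genes, 173 genes were measured, of which 36 (20.8%) met the criterion on the higher side, against 2.43% of all genes, and 0 on the lower side. Above both controls were 160 of the 173, against 41.3% of all genes. Their median log2 ratio was 0.71 against cel-miR-67 and 0.84 against mock, with medians of all genes at 0.00 and 0.01. The controls differed on these genes in a smaller measure: cel-miR-67 was above mock in 134 of the 173, with a median log2 ratio of 0.14.

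Among 24 measured cyclins, cyclin-dependent kinases and activating E2F factors, 5 were higher and 0 lower, with list medians of 0.57 and 0.80. E2f2, an activating E2F factor, had 2.68 CPM in mock, 2.69 in cel-miR-67 and 12.3 in hsa-miR-199a-3p, with log2 ratios of 2.19 against cel-miR-67 and 2.20 against mock, the highest of all cell cycle genes. Ccne1, the cyclin E1 of S phase entry, had 11.9 CPM in mock, 13.4 in cel-miR-67 and 33.5 in hsa-miR-199a-3p, with log2 ratios of 1.32 against cel-miR-67 and 1.49 against mock. E2f1 had 20.2 CPM in mock, 23.7 in cel-miR-67 and 49.1 in hsa-miR-199a-3p, with log2 ratios of 1.05 against cel-miR-67 and 1.28 against mock. The controls were close for all 3 and hsa-miR-199a-3p was the highest library. Mybl2, a transcription factor of the mitotic gene programme, had log2 ratios of 1.21 and 1.04.

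For DNA replication, 6 of 46 measured genes were higher and 0 lower, and 40 lay above both controls, with list medians of 0.70 and 0.84. Mcm2 and Mcm7, subunits of the replicative helicase, had log2 ratios of 1.07 and 1.18 against cel-miR-67 and 1.29 and 1.31 against mock. Lig1, which joins Okazaki fragments, had 35.2 CPM in mock, 39.1 in cel-miR-67 and 96.2 in hsa-miR-199a-3p, with log2 ratios of 1.30 against cel-miR-67 and 1.45 against mock. The other higher members were Cdc45, Prim1 and Rfc4. Of 20 nucleotide synthesis genes 3 were higher and 0 lower, with list medians of 0.47 and 0.45. Tk1, thymidine kinase 1, had 16.5 CPM in mock, 17.0 in cel-miR-67 and 42.2 in hsa-miR-199a-3p, with log2 ratios of 1.31 against cel-miR-67 and 1.35 against mock. Dut, the dUTPase, had log2 ratios of 1.5 and 1.35, and Rrm2, the ribonucleotide reductase subunit expressed in S phase, of 1.01 and 1.06.

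Mitotic genes had the largest list medians. Of 48 genes of mitotic kinases, spindle and cytokinesis, 14 were higher, 0 lower and 47 above both controls, with list medians of 0.85 and 1.12. Aurka, Aurora kinase A, had 19.5 CPM in mock, 24.4 in cel-miR-67 and 60.8 in hsa-miR-199a-3p, with log2 ratios of 1.32 against cel-miR-67 and 1.64 against mock. Birc5, survivin of the chromosomal passenger complex, had 19.8 CPM in mock, 22.7 in cel-miR-67 and 58.8 in hsa-miR-199a-3p, with log2 ratios of 1.38 against cel-miR-67 and 1.57 against mock. Espl1, the separase that cleaves cohesin, had log2 ratios of 1.39 and 1.57, and Ckap2, a microtubule-associated protein, of 1.47 and 1.34. Ccnb2, cyclin B2, had log2 ratios of 1.01 and 1.22. Ccnb1, cyclin B1, named here after its values were seen, had 46.0 CPM in mock, 23.1 in cel-miR-67 and 90.1 in hsa-miR-199a-3p, so it missed the criterion against mock at 0.97 while cel-miR-67 was at -0.99 against mock, and 28.4% of its reads were uniquely placed. Of 35 kinetochore and spindle checkpoint genes, 8 were higher, 0 lower and 34 above both controls, with list medians of 0.71 and 0.82. Bub1b, the checkpoint kinase-like protein BubR1, had 28.2 CPM in mock, 33.6 in cel-miR-67 and 93.9 in hsa-miR-199a-3p, with log2 ratios of 1.48 against cel-miR-67 and 1.74 against mock. Cenpm, Cenph, Cenpp and Ska1 had log2 ratios against cel-miR-67 between 1.41 and 1.5 on smaller counts, from 76 to 179 reads in the control libraries. Mki67, the proliferation marker Ki-67, was above both controls without passing 2-fold, at 156 CPM in mock, 169 in cel-miR-67 and 216 in hsa-miR-199a-3p. Markers of fibroblasts and of smooth muscle also summed higher under hsa-miR-199a-3p than in both controls (values above), through few genes. Of the 12 fibroblast markers 6 lay below both controls and 4 above both, and without the 3 collagens Col1a1, Col1a2 and Col3a1 they summed to 1041 CPM in mock, 1356 in cel-miR-67 and 712 in hsa-miR-199a-3p. Of the 10 smooth muscle and pericyte markers 3 lay below both and 4 above both, and without Acta2 they summed to 2073 CPM in mock, 2398 in cel-miR-67 and 2161 in hsa-miR-199a-3p. Their part in the cell cycle result was not tested.

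**Figure D3:**
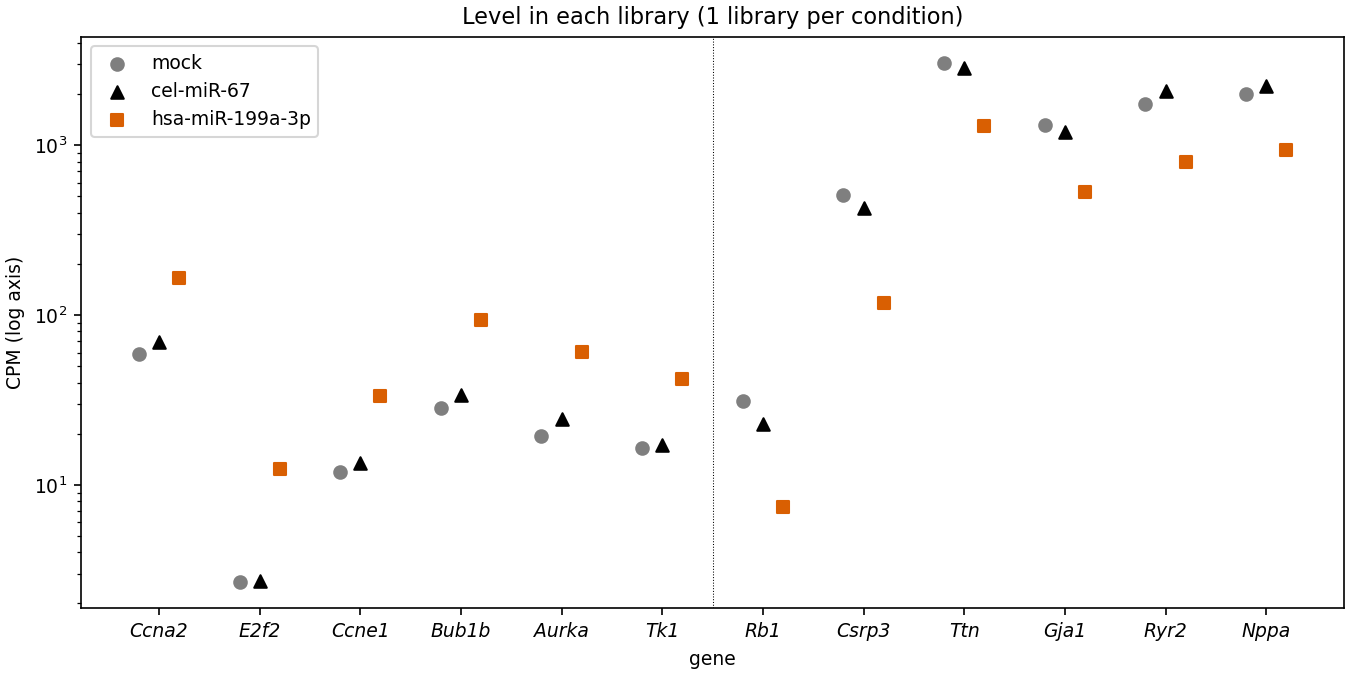
Level in CPM (vertical log axis) of 12 genes in mock, cel-miR-67 and hsa-miR-199a-3p, 1 point per library. Left of the dotted line hsa-miR-199a-3p (squares) lies above both controls for 6 cell cycle genes, and right of it below both controls for Rb1 and 5 cardiac genes.

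The promoters of these genes, 250 bases before to 50 after the annotated start, were searched on both strands for an E2F motif (TTTGGCGC, TTTCGCGC or TTTCCCGC), for CHR, the cell cycle homology region (TTTGAA), and for CCAAT. Promoters are shown for E2f2 and Mcm7 with the E2F motif in capitals, and for Bub1b and Ccnb2, which are genes of mitosis, with CHR and CCAAT in capitals. All come from RefSeq on GRCm38.p6, 5′ to 3′ on the strand of the gene: E2f2 at chr4:136172024-136172323 (plus), Mcm7 at chr5:138171834-138172133 (minus), Bub1b at chr2:118597961-118598260 (plus) and Ccnb2 at chr9:70421505-70421804 (minus).
E2f2: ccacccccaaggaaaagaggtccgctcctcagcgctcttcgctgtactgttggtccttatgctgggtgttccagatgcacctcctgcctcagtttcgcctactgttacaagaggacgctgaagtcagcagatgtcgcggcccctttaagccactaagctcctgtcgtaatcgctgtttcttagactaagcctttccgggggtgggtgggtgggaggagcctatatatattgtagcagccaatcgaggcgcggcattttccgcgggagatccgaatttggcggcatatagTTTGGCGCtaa
Mcm7: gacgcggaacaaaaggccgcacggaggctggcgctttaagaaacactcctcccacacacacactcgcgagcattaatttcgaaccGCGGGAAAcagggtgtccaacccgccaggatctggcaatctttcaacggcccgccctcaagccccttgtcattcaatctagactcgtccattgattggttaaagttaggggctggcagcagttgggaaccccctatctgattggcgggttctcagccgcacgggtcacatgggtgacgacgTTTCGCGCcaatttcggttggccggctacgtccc
Bub1b: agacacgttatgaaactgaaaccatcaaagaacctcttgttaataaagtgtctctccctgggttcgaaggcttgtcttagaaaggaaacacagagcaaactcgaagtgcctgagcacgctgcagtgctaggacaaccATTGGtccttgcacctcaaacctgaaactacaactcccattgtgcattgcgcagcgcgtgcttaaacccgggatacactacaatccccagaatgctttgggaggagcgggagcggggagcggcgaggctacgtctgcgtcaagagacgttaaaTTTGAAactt
Ccnb2: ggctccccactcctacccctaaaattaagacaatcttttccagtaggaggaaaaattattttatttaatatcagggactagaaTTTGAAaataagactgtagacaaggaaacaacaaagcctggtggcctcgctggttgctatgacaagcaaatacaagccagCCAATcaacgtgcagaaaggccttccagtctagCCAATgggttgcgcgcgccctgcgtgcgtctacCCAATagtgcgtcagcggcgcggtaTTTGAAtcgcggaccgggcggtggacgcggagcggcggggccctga
E2f2 and Mcm7 have 2 promoters each in the table, and the one with the E2F motif is shown: it held 1 match in E2f2 and 2 in Mcm7, and the other promoter of each gene held 0. Among 34 promoters of 30 of the 36 higher cell cycle genes, 4 held the E2F motif (11.8%), 21 CCAAT (61.8%), 13 CHR (38.2%) and 13 both CHR and CCAAT (38.2%). For all 169 promoters of the measured cell cycle genes the shares were 18.9%, 58.6%, 37.3% and 26.6%, and for the 12936 promoters of all measured genes that matched the RefSeq table they were 3.39%, 37.5%, 11.8% and 4.71%. Higher genes outside the cell cycle lists, with 254 promoters, held the E2F motif in 4.72% and CHR with CCAAT in 8.66%. The 265 promoters of lower genes held them in 0.755% and 3.40%. Of all 32851 promoters of the table, 1.84% held the E2F motif, 37.4% CCAAT, 17.9% CHR and 6.95% CHR with CCAAT. A match of letters is not evidence of binding, and genes with several starts contribute several promoters.

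Brakes on the cycle lay on both sides. Of 22 measured pocket proteins, inhibitors of cyclin-dependent kinases and repressor E2Fs, 3 were higher and 1 lower, with list medians of 0.22 and 0.17. Rb1, the retinoblastoma protein, had 31.3 CPM in mock, 22.8 in cel-miR-67 and 7.38 in hsa-miR-199a-3p, with log2 ratios of -1.63 against cel-miR-67 and -2.08 against mock, and hsa-miR-199a-3p was the lowest library. Cdkn2c, the inhibitor p18 of Cdk4 and Cdk6, had 5.56 CPM in mock, 7.01 in cel-miR-67 and 17.6 in hsa-miR-199a-3p, with log2 ratios of 1.33 against cel-miR-67 and 1.66 against mock. Cdkn3, a phosphatase of cyclin-dependent kinases, had log2 ratios of 1.41 and 1.70, and Cdkn2d (p19) of 1.01 and 1.07, with 5.32% of its reads uniquely placed. Cdkn1a (p21) was level with mock and below cel-miR-67, at 177 CPM in mock, 233 in cel-miR-67 and 166 in hsa-miR-199a-3p.

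None of 27 measured p53 pathway genes met the criterion, and list medians were -0.08 and 0.08. Ccng1, a p53 target, had 343 CPM in mock, 526 in cel-miR-67 and 262 in hsa-miR-199a-3p, and here hsa-miR-199a-3p was past 2-fold below cel-miR-67 only. Among 40 DNA repair genes 4 were higher (Fanca, Fancd2, Exo1 and Neil3) and 1 lower, with medians of 0.29 and 0.35. The lower one was Atr, the kinase that responds to stalled replication forks, with 33.5 CPM in mock, 28.5 in cel-miR-67 and 10.2 in hsa-miR-199a-3p and log2 ratios of -1.49 against cel-miR-67 and -1.72 against mock. Of 15 histone genes 1 linker histone was higher (H1f10) and 1 lower (H1f4), with list medians of 0.15 and 0.25.

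Genes of the contractile apparatus were lower as a group. Of 46 measured sarcomere genes 7 were lower and 1 higher, against 2.27% and 2.43% of all genes, and 35 lay below both controls, against 40.9% of all genes. List medians were -0.38 and -0.52, and cel-miR-67 lay at a median of -0.13 from mock. From uniquely placed reads alone, 30 of 44 measured lay below both controls and 10 above both, with medians of -0.28 and -0.50. With total-count scaling the medians were -0.29 and -0.42. Csrp3, muscle LIM protein of the Z-disc, had 506 CPM in mock, 426 in cel-miR-67 and 117 in hsa-miR-199a-3p, with log2 ratios of -1.86 against cel-miR-67 and -2.11 against mock. Xirp2, which binds actin at the intercalated disc, had 162 CPM in mock, 75.1 in cel-miR-67 and 19.7 in hsa-miR-199a-3p, with log2 ratios of -1.93 against cel-miR-67 and -3.04 against mock, and the controls themselves differed. Ttn, titin, had 3058 CPM in mock, 2841 in cel-miR-67 and 1301 in hsa-miR-199a-3p, with log2 ratios of -1.13 against cel-miR-67 and -1.23 against mock. In each of these 3 hsa-miR-199a-3p lay below both controls, with 1 library per condition. Myl4, the atrial essential light chain, and Myom2, an M-band protein, had log2 ratios of -1.5 and -1.24 against cel-miR-67 and -1.44 and -1.21 against mock. Mybphl and Cfl2 were the other lower members. Myoz1, a Z-disc protein of fast skeletal fibres, was the higher member, with 39 reads in mock, 31 in cel-miR-67 and 107 in hsa-miR-199a-3p.

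The size of the difference varied among muscle genes, and 8 of the 46 sarcomere genes lay above both controls. Actn2, alpha-actinin 2 of the Z-disc, had 2245 CPM in mock, 2116 in cel-miR-67 and 1978 in hsa-miR-199a-3p, and Tnni3, cardiac troponin I, had 1237 CPM in mock, 1048 in cel-miR-67 and 936 in hsa-miR-199a-3p, both below both controls and close to cel-miR-67. The cardiomyocyte marker list, which shares members with the sarcomere list, had medians of -0.67 and -0.80, and its part in the difference of the sarcomere genes was not tested.

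Of 32 calcium cycling genes 3 were lower and 0 higher, against 2.27% and 2.43% of all genes, with list medians of -0.21 and -0.17. Of the 32, 15 lay below both controls and 9 above both, against 40.9% and 41.3% of all genes. Pln, phospholamban, the inhibitor of the calcium pump of the sarcoplasmic reticulum, had 1595 CPM in mock, 1749 in cel-miR-67 and 600.0 in hsa-miR-199a-3p, with log2 ratios of -1.54 against cel-miR-67 and -1.41 against mock. Ryr2, the calcium release channel, had 1739 CPM in mock, 2074 in cel-miR-67 and 797 in hsa-miR-199a-3p, with log2 ratios of -1.38 against cel-miR-67 and -1.13 against mock. Slc8a1, the sodium-calcium exchanger, had 1377 CPM in mock, 1129 in cel-miR-67 and 564 in hsa-miR-199a-3p, with log2 ratios of -1.0 against cel-miR-67 and -1.29 against mock, and was short of 2-fold against cel-miR-67 with total-count scaling (-0.91) and with uniquely placed reads (-0.73). All 3 were lowest under hsa-miR-199a-3p. Among 26 channel and gap junction genes 4 were lower (among them Gja1, Kcnj3 and Scn7a) and 0 higher, against the same shares of all genes. List medians were -0.07 and -0.10. Gja1, connexin 43 of the gap junction, had 1319 CPM in mock, 1188 in cel-miR-67 and 527 in hsa-miR-199a-3p, with log2 ratios of -1.17 against cel-miR-67 and -1.32 against mock.

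The natriuretic peptides were lower, with 2 of 15 natriuretic and fetal genes past 2-fold, against 2.27% of all genes. Nppa had 1992 CPM in mock, 2235 in cel-miR-67 and 939 in hsa-miR-199a-3p, with log2 ratios of -1.25 against cel-miR-67 and -1.08 against mock, and left the criterion with total-count scaling. Nppb had 306 CPM in mock, 285 in cel-miR-67 and 91.8 in hsa-miR-199a-3p, with log2 ratios of -1.64 against cel-miR-67 and -1.74 against mock. The list had a median of -0.12 against cel-miR-67 and 0.31 against mock, so it differed in sign between the controls. Of 29 cardiac transcription factors 1 was higher and 0 lower, with medians of -0.07 and -0.11. The higher one was Hand1, a factor of the early heart tube, with 2.29 CPM in mock, 2.78 in cel-miR-67 and 9.25 in hsa-miR-199a-3p and log2 ratios of 1.73 against cel-miR-67 and 2.01 against mock.

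In the signalling lists few genes met the criterion, but only 2.27% of all genes were lower and 2.43% higher. These counts therefore do not set the signalling lists apart. Of 32 Hippo pathway genes 1 was lower and 1 higher, with list medians of -0.10 and 0.05. Taok1, a kinase that activates the Hippo kinases, had 179 CPM in mock, 184 in cel-miR-67 and 49.8 in hsa-miR-199a-3p, with log2 ratios of -1.88 against cel-miR-67 and -1.85 against mock. Yap1, the coactivator at the end of the pathway, had 165 CPM in mock, 179 in cel-miR-67 and 181 in hsa-miR-199a-3p, and Tead4, a DNA-binding partner of it, had 5.36 CPM in mock, 4.61 in cel-miR-67 and 10.9 in hsa-miR-199a-3p. Among 45 growth factor receptor and mTOR genes 2 were lower and 0 higher, and 28 lay below both controls and 11 above both, with medians of -0.13 and -0.12. With total-count scaling 21 lay below both and 17 above both, with medians of -0.05 and -0.02. Erbb4, a neuregulin receptor, had 13.6 CPM in mock, 11.4 in cel-miR-67 and 2.87 in hsa-miR-199a-3p, with log2 ratios of -1.98 against cel-miR-67 and -2.24 against mock. Pik3cb, a catalytic subunit of phosphoinositide 3-kinase, had log2 ratios of -1.23 and -1.33.

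Adhesion receptors showed 5 lower and 1 higher member among 42, against 2.27% and 2.43% of all genes. Below both controls were 21 and above both 12, against 40.9% and 41.3% of all genes, with list medians of -0.18 and -0.11. Cd151 is described above, and its partner Itga3, the laminin-binding integrin alpha 3, had 158 CPM in mock, 161 in cel-miR-67 and 47.6 in hsa-miR-199a-3p, with log2 ratios of -1.76 against cel-miR-67 and -1.73 against mock. Itgb8 and Itgb6 had log2 ratios of -2.14 and -1.24 against cel-miR-67 and -1.60 and -1.99 against mock. Cd44, the hyaluronan receptor, had 115 CPM in mock, 105 in cel-miR-67 and 46.6 in hsa-miR-199a-3p, with log2 ratios of -1.17 against cel-miR-67 and -1.31 against mock. From uniquely placed reads alone Cd44 and Itgb6 were at -0.82 and -0.65 against cel-miR-67, short of 2-fold. Of 39 actin dynamics genes 2 were lower (Cfl2 and Pak4) and 1 higher (Avil), with list medians of -0.08 and 0.00. Cfl2, the muscle cofilin that severs actin filaments, had 261 CPM in mock, 240.5 in cel-miR-67 and 112 in hsa-miR-199a-3p, with log2 ratios of -1.10 against cel-miR-67 and -1.22 against mock.

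Genes named in the literature as targets of miR-199a-3p lay mostly low. Of 17 measured, 6 were lower and 0 higher, and 16 were below both controls, against 40.9% of all genes, with list medians of -0.99 and -0.62. The list includes Homer1, Hopx and Clic5, which the study followed up as targets, and Cfl2 and Taok1, which were studied in such cells, so its direction is not independent evidence. Hopx, a homeodomain-only protein of the heart, had 219 CPM in mock, 304 in cel-miR-67 and 144 in hsa-miR-199a-3p, with log2 ratios of -1.08 against cel-miR-67 and -0.61 against mock, and Clic5 had log2 ratios of -1.09 and -0.89. Homer1, a scaffold protein, had 38.7 CPM in mock, 39.7 in cel-miR-67 and 27.4 in hsa-miR-199a-3p, with log2 ratios of -0.53 against cel-miR-67 and -0.49 against mock. These 3 were below both controls and within 2-fold of at least 1 of them. Adam10, a membrane protease, and Ptgs2, cyclooxygenase 2, had log2 ratios of -1.62 and -1.39 against cel-miR-67. Mtor had 129 CPM in mock, 134 in cel-miR-67 and 88.2 in hsa-miR-199a-3p, and Met, the receptor of hepatocyte growth factor, had 21.8 CPM in mock, 21.6 in cel-miR-67 and 11.8 in hsa-miR-199a-3p. Btrc, the beta-TrCP subunit of an E3 ligase, was above both controls with log2 ratios of 0.38 and 0.30.

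The machinery that makes and uses microRNAs held 2 lower genes and 0 higher among 25, against 2.27% and 2.43% of all genes. List medians were -0.13 and -0.07. Cnot7, a deadenylase of the CCR4-NOT complex, had 42.4 CPM in mock, 49.3 in cel-miR-67 and 15.6 in hsa-miR-199a-3p, with log2 ratios of -1.66 against cel-miR-67 and -1.44 against mock. Ago4 had log2 ratios of -1.24 and -1.38, whereas Ago2, the Argonaute that cleaves targets, was above both controls at 163 CPM in mock, 192 in cel-miR-67 and 226 in hsa-miR-199a-3p. Dicer1 was slightly below both, at 97.2 CPM in mock, 117 in cel-miR-67 and 91.0 in hsa-miR-199a-3p.

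Iron genes were split. Of 30 measured 2 were lower and 1 higher, against 2.27% and 2.43% of all genes, with list medians of -0.03 and -0.04. Fth1 is described above, and Ftl1, the ferritin light chain, pointed the other way with 536 CPM in mock, 758 in cel-miR-67 and 1122 in hsa-miR-199a-3p and log2 ratios of 0.57 against cel-miR-67 and 1.07 against mock. Of the reads of Ftl1, which has 1 record, 32.4% were uniquely placed. Steap4, a metalloreductase, had 5.03 CPM in mock, 4.73 in cel-miR-67 and 0.873 in hsa-miR-199a-3p, with log2 ratios of -2.42 against cel-miR-67 and -2.51 against mock. Hfe, a regulator of hepcidin, had 68 reads in mock, 66 in cel-miR-67 and 210 in hsa-miR-199a-3p.

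Few genes of energy metabolism met the criterion, but only 2.27% of all genes were lower and 2.43% higher. These counts therefore do not set its lists apart. None of 40 oxidative phosphorylation genes met the criterion, but 29 lay below both controls and 4 above both, against 40.9% and 41.3% of all genes, with list medians of -0.18 and -0.24. With total-count scaling 25 lay below both and 5 above both, and the medians were -0.10 and -0.14. Sdha, the flavoprotein subunit of complex II, had 693 CPM in mock, 664 in cel-miR-67 and 384 in hsa-miR-199a-3p, with log2 ratios of -0.79 against cel-miR-67 and -0.85 against mock. Of 35 fatty acid oxidation and PPAR genes 2 were lower (Pparg and Angptl4, with 91 and 53 reads in cel-miR-67) and 0 higher, with medians of -0.14 and -0.15. None of 30 glycolysis genes met it, with medians of 0.10 and 0.00. Of 35 sterol and fatty acid synthesis genes 1 was lower and 0 higher, with list medians of 0.23 and 0.27. That gene was Hmgcs1, whose reads were uniquely placed in 0.479% only. No cytosolic ribosomal protein gene of 38 met the criterion, but 33 were above both controls and 0 below both, against 41.3% and 40.9% of all genes, with list medians of 0.34 and 0.23. Rplp0 had 1091 CPM in mock, 1162 in cel-miR-67 and 1324 in hsa-miR-199a-3p, with log2 ratios of 0.19 against cel-miR-67 and 0.28 against mock. Ribosomal protein genes have near-identical pseudogenes between which reads could be split in the authors' counting. From uniquely placed reads alone, 28 of 37 measured lay above both controls and 2 below both, with list medians of 0.28 and 0.23.

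Of 35 unfolded protein and integrated stress response genes 1 was lower and 0 higher, with list medians of -0.19 and -0.16. Atf3, a stress-induced factor, had 27.9 CPM in mock, 23.9 in cel-miR-67 and 10.9 in hsa-miR-199a-3p, with log2 ratios of -1.13 against cel-miR-67 and -1.35 against mock.

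Inflammatory genes were lower more often than higher. Of 26 measured chemokine, cytokine and acute phase genes, 6 were lower and 1 higher, against 2.27% and 2.43% of all genes. Below both controls were 19, against 40.9% of all genes, with list medians of -0.30 and -0.34. Ccl2, a monocyte chemokine, had 24.2 CPM in mock, 18.2 in cel-miR-67 and 5.69 in hsa-miR-199a-3p, with log2 ratios of -1.68 against cel-miR-67 and -2.09 against mock. Ptgs2 had 34.2 CPM in mock, 25.1 in cel-miR-67 and 9.60 in hsa-miR-199a-3p, with log2 ratios of -1.39 against cel-miR-67 and -1.83 against mock. Il13ra1, a receptor chain for interleukins 4 and 13, had 70.2 CPM in mock, 79.3 in cel-miR-67 and 15.3 in hsa-miR-199a-3p, with log2 ratios of -2.38 against cel-miR-67 and -2.20 against mock. Ccl7, Il6 and Saa3 were the other lower members, Saa3 on 98, 65 and 21 reads. Ptx3, a long pentraxin, was the higher one, with 6.54 CPM in mock, 6.26 in cel-miR-67 and 20.2 in hsa-miR-199a-3p and log2 ratios of 1.69 against cel-miR-67 and 1.62 against mock. Leukocyte markers summed lower in cel-miR-67 and hsa-miR-199a-3p than in mock (values above), and their part was not tested.

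Interferon response genes followed neither control. All 33 measured were lower in cel-miR-67 than in mock, 22 of them at least 2-fold, and 26 had their hsa-miR-199a-3p level between the controls. List medians were 0.62 against cel-miR-67, -0.52 against mock and -1.35 between the controls. Isg15, a ubiquitin-like interferon-induced protein, had 74.6 CPM in mock, 21.4 in cel-miR-67 and 43.6 in hsa-miR-199a-3p. hsa-miR-199a-3p was at least 2-fold above cel-miR-67 in 10 genes and at least 2-fold below mock in 7. Psmb9, an immunoproteasome subunit, was the gene at least 2-fold higher than both, with 47 reads in mock, 22 in cel-miR-67 and 129 in hsa-miR-199a-3p. On these genes the ratio depends on which control is taken.

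**Figure D4:**
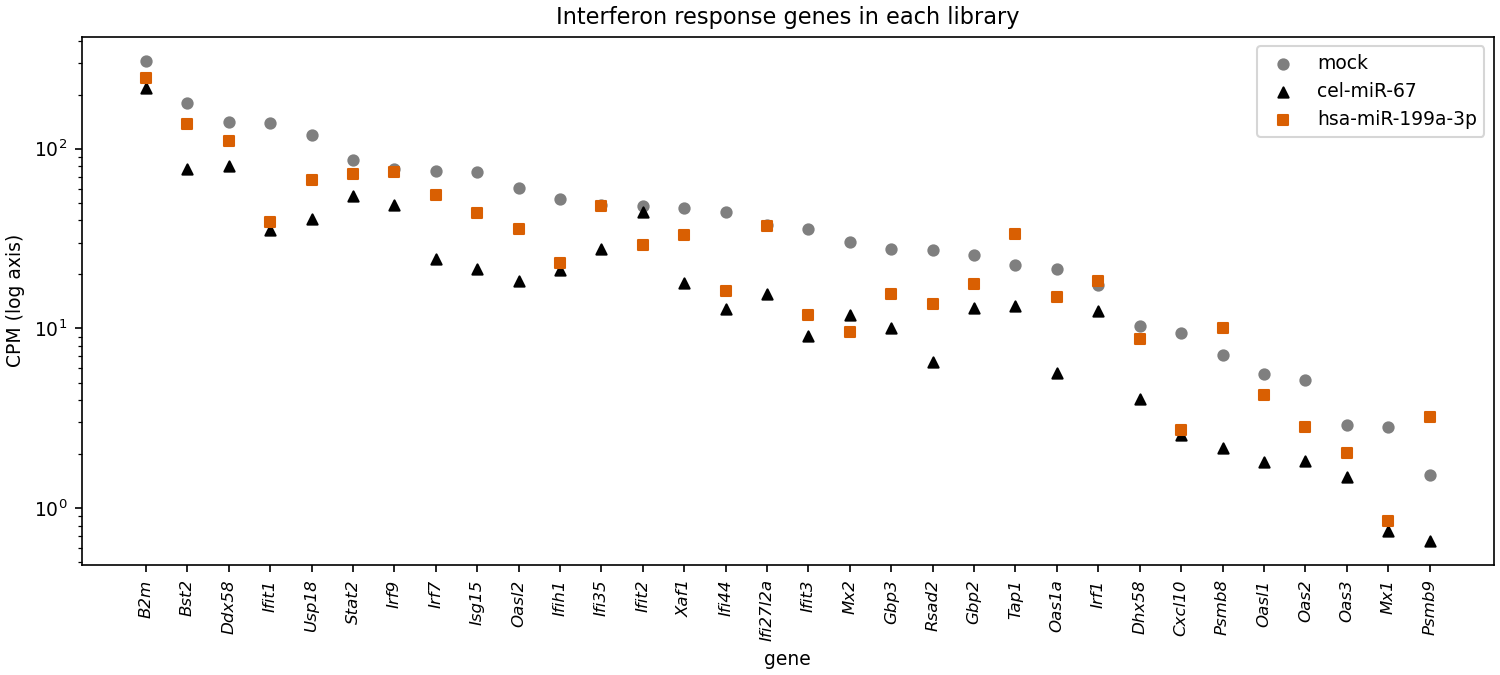
Level in CPM (vertical log axis) of 32 of the 33 interferon response genes in mock (circles), cel-miR-67 (triangles) and hsa-miR-199a-3p (squares), ordered by the mock level, 1 point per library. cel-miR-67 lies below mock for all 32 plotted, and hsa-miR-199a-3p between the controls for 26 of them.

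The extracellular matrix list differed in sign between the controls, with medians of -0.20 against cel-miR-67 and 0.09 against mock over 43 genes, 2 of them lower and 0 higher. Postn, periostin of activated fibroblasts, had 443 CPM in mock, 608 in cel-miR-67 and 147 in hsa-miR-199a-3p, with log2 ratios of -2.05 against cel-miR-67 and -1.59 against mock. Spp1, osteopontin, had 206 reads in mock, 79 in cel-miR-67 and 47 in hsa-miR-199a-3p, at the threshold against cel-miR-67 with -1.0. Fibroblast markers lay on both sides of the controls. Col3a1 had 1319 CPM in mock, 1139.8 in cel-miR-67 and 1909.7 in hsa-miR-199a-3p, whereas Pdgfra, the platelet-derived growth factor receptor alpha, had 102 CPM in mock, 122 in cel-miR-67 and 64.1 in hsa-miR-199a-3p and Dcn had 96.4 CPM in mock, 99.1 in cel-miR-67 and 56.3 in hsa-miR-199a-3p.

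Of 37 neuronal and synaptic genes 13 were measured, of which 3 were higher and 1 lower, against 2.43% and 2.27% of all genes. Of the 13, 8 lay at 1 to 10 CPM, where 5.39% of genes were higher and 2.98% lower. Above both controls were 5 of the 13 and below both 5. List medians were -0.21 and 0.02. Uchl1, a ubiquitin hydrolase of neurons, had 51.0 CPM in mock, 31.6 in cel-miR-67 and 105 in hsa-miR-199a-3p, with log2 ratios of 1.74 against cel-miR-67 and 1.04 against mock. Gap43, a growth cone protein, had 2.25 CPM in mock, 3.41 in cel-miR-67 and 9.23 in hsa-miR-199a-3p, with log2 ratios of 1.43 against cel-miR-67 and 2.03 against mock. Syn2, a synaptic vesicle protein, was the third. In the controls Uchl1 and Syn2 were lower in cel-miR-67 than in mock.

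**Figure D5:**
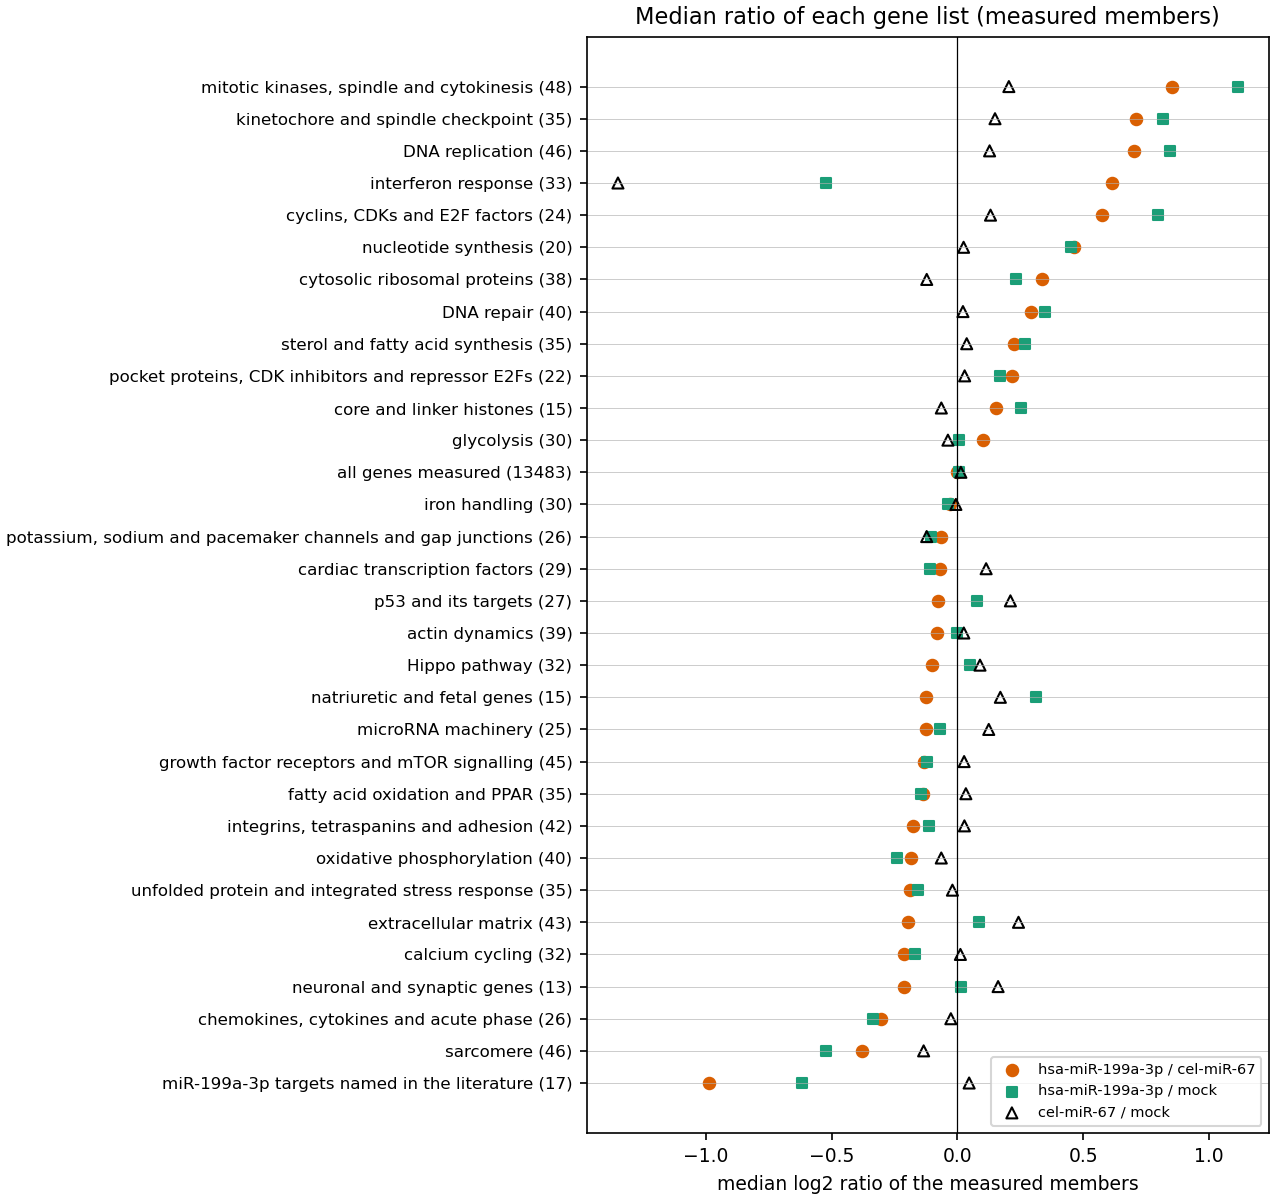
Median log2 ratio (horizontal axis) of the measured members of each gene list (number in parentheses), for hsa-miR-199a-3p against cel-miR-67 (circles), hsa-miR-199a-3p against mock (squares) and cel-miR-67 against mock (open triangles). Mitotic, kinetochore and replication genes have medians from 0.70 to 1.12 against both controls, sarcomere genes -0.38 and -0.52, and interferon genes lie on opposite sides of 0 for the 2 controls.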

How the data were processed

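Members and gene lists were chosen with earlier results of these data known. RNA sequencing gave 1 library per condition. For 36065 RefSeq transcript records the deposited tables hold, per the file headers, total gene reads and unique gene reads, both whole-number counts, and the authors' RPKM, with a column that repeats it. CASAVA 1.8 and mm8 are named in the submitters' processing notes with no role, and the aligner is not given in the sources used. The total counts of the authors include reads shared between records, which can count or divide reads of transcript variants and near-identical genes in ways not stated. The share of uniquely placed reads is therefore given for named genes with 1 record and few of them.

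Samples were grouped by the treatment in the labels. Total reads of all records per file symbol were summed (27207 genes, 6249 with at least 2 records). Current symbols came from the RefSeq table by accession for 27926 records (77.4%), without coordinates. TMM factors from edgeR 4.0.16 under R 4.3.3 scaled the libraries, and edgeR served for nothing else. Genes whose 4-library mean reached 1 CPM were kept and log2 ratios taken with a prior count of 0.5. With 0 residual degrees of freedom no test was made. Each 95% interval is an exact Clopper-Pearson one, conditional on the summed reads of both libraries. Reads carry no molecular identifiers, so they cover counting error only. Scripts were tested on simulated data. Python 3.11.15, numpy 2.4.6, pandas 2.3.3, scipy 1.17.1 and matplotlib 3.10.9 were used.

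Genes were named by rule: among genes past 2-fold against both controls with at least 50 reads in the higher library, the 12 highest and 12 lowest by the smaller log2 ratio, the 6 highest and 6 lowest per band of mean CPM, the 6 largest gains and losses in CPM, up to 4 members per list and direction, the most abundant list member, Gapdh and Actb. All 43 abundant genes that met the criterion and have a gene name are also named, and some list members short of it serve as examples chosen for their known role. Y-linked genes, pseudogenes and gene models without a name were counted and not named, and some other genes are not reported here. Alternatives were total-count and DESeq2 1.42.0 scaling, unique reads, other filters, prior counts, symbols and thresholds, unsummed records, the authors' RPKM with a pseudocount of 0.1, and other uses of the controls.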

Additional observations from a re-analysis of the deposited data

How the results depend on the processing

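The 2-fold criterion gave 327 higher and 306 lower genes, and 5 higher and 40 lower among abundant genes (100 CPM or more). Counts moved by over 1.5 times as follows. Higher and lower genes numbered 1629 and 995 with no filter on low counts, 539 and 488 against cel-miR-67 alone, 548 and 483 against mock alone, 79 and 57 at 3-fold, 939 and 1093 at 1.5-fold, and 167 and 163 when the counting interval had to pass 2-fold. With a minimum mean of 5 CPM 168 were higher, and with records not summed 498 were lower. Abundant higher genes numbered 10 with total-count scaling, 10 with uniquely placed reads, 8 with records not summed, 8 with the authors' RPKM, 10 against the mean of both controls, 16 against cel-miR-67 alone, 15 against mock alone, 0 at 3-fold and 32 at 1.5-fold. Abundant lower genes numbered 61 against cel-miR-67 alone, 10 at 3-fold and 180 at 1.5-fold. Bands set by the mean of both controls, an alternative chosen after seeing the data as was that by the hsa-miR-590-3p library, left 0 abundant higher genes. The cause was not tested beyond what each setting does by construction.

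Named genes were recomputed under 5 of the alternatives, and none changed direction against cel-miR-67 in these. Of 148 named or listed genes past 2-fold or named by rule, 3 left the criterion with total-count scaling (Slc8a1, Nppa and Spp1), 2 with DESeq2 size factors, 2 with a prior count of 5, 0 with current symbols, and 5 of 135 with uniquely placed reads, among them Slc8a1 at -0.73 against cel-miR-67. Of 38 list medians 6 changed sign against cel-miR-67 with total-count scaling, those of actin, cardiac transcription factor, endothelial, iron, p53 and channel genes, 1 with a minimum of 5 CPM and 1 with uniquely placed reads. Total-count scaling raised each list median by about the 0.09 of all genes, which moved 17 more by over 1.5 times, such as oxidative phosphorylation (-0.18 to -0.10), calcium cycling (-0.21 to -0.13) and extracellular matrix (-0.20 to -0.11). List medians that kept their sign and moved by over 1.5 times numbered 9 with uniquely placed reads, 10 with a minimum of 5 CPM and 1 with DESeq2 size factors. No paired analysis was possible because each condition has 1 library. Depth limits the 1 to 10 CPM band most, where the median counting SD of a log2 ratio against cel-miR-67 was 0.18.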

Other observations

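The deposited records of the microRNA genes themselves held almost no reads: Mir199a-1 had 0 in every library, and Mir199a-2 and Mir199b had 1 each in cel-miR-67 and 0 in mock and hsa-miR-199a-3p. Dnm3os, the antisense transcript from which miR-199a-2 is processed, named here after its values were seen, had 366 reads in mock, 369 in cel-miR-67 and 228 in hsa-miR-199a-3p. Its ratio was 0.515 (95% counting interval 0.434 to 0.609) against cel-miR-67 and 0.475 (0.401 to 0.563) against mock, so the library of the mimic was the lowest and the controls were equal within counting error. No source used here gives whether counting used strand, so reads of an overlapping gene cannot be told apart from it. The records of Dnm3, the overlapping gene, held 4 to 17 reads each per library, and 98.5% of the reads of Dnm3os were uniquely placed. What such reads add to Dnm3os was not tested.

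The gene model with the most reads among the lower genes was LOC100503946, which carries no gene name and was singled out after its values were seen. It had 312851 reads in mock, 360018 in cel-miR-67 and 201706 in hsa-miR-199a-3p, with log2 ratios of -1.10 against cel-miR-67 and -1.02 against mock. The other abundant lower model left unnamed above was A130040M12Rik, with 23256, 14247 and 7786 reads, where the controls also differed.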
